A study of Mus musculus with 5 samples.

Results

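Regulatory T cells (Tregs) sorted from the fat of 10-month mice were compared here with those from the fat of lean 4-month mice, gene by gene, through 1 mRNA library of each age. A gene entered the comparison if it lies on an autosome, is listed in the tables that hold both libraries, and had 1 CPM or more (reads per 1000000 listed reads) in at least 1 of them. These conditions were met by 13200 genes, of which 10697 code for proteins, out of 49927 gene IDs listed in any table of the study. Both libraries came from C57BL/6 mice carrying Foxp3Cre, the Cre recombinase expressed with the Treg transcription factor Foxp3, and neither group carried a floxed gene or received a stated treatment. The 4-month group is called lean for want of any mention of obesity in its labels. The study also has a 4-month obese adipose library with HFD (commonly high-fat diet) in its title, a 4-month lymph node (LN) library, both from Foxp3Cre mice, and a 10-month adipose library labelled as a knockout of Med23, from Med23fl/fl;Foxp3Cre mice. Their values are set beside the main pair where they help to read it. The number of mice behind each library, whether mice were pooled, the fat depot and the sorting gate were not stated in the sources used here.

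Tregs restrain inflammation, and those that live in fat form a distinct population. In male mice they accumulate in visceral fat with age, depend on the nuclear receptor PPARγ and on interleukin-33 sensed through its receptor ST2, and carry receptors and cytokines that lymphoid Tregs largely lack. Their number and gene programme are known to differ with age, sex and obesity. The libraries carried the genes that define the sorted cell. At 10 and 4 months Cd3e, a chain of the T cell receptor complex, had 213 and 142 CPM, and Cd4, the coreceptor, had 121 and 101 CPM. Foxp3, which lies on the X chromosome and is therefore outside the 13200, had 185 and 216 CPM. Il2ra (CD25, the high-affinity interleukin-2 receptor chain) had 1413 and 1520 CPM, and Ikzf2 (Helios, a Treg transcription factor) had 2407 and 2686 CPM. Each of these genes was within 2-fold between the ages.

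The listed values stand for 9650769 reads at 10 months and 8540594 reads at 4 months, and each column was rescaled to a sum of 1000000, so that values are in CPM. A gene listed at 0 had under 9 reads, since values under 1 scaled count are listed as 0. With 1 library on each side there was no test and no spread between mice. Intervals in parentheses after a fold are 95% Clopper-Pearson counting intervals, which cover counting error alone. Age cannot be told apart from other differences between these libraries. Xist, which silences 1 X chromosome in females, had 440 CPM at 10 months and was listed at 0 at 4 months, whereas Ddx3y, on the Y chromosome, had 0 at 10 months and 559.7 CPM at 4 months, so the libraries also differ in these sex markers. The 10-month library labelled Med23 KO (Xist 602 CPM, Ddx3y 0) resembled the 10-month library in this, and the obese library (3.60 and 562 CPM) the lean one. The 4-month LN library had 228 CPM of Xist and 0 of Ddx3y, so this split does not follow age over all 5 libraries. The ages also come from separately made tables, and the LN values used here come from the table of the lean library. Gapdh, a glycolytic enzyme gene that all cells use, had 639 CPM at 10 months and 1.05 CPM at 4 months, with 979 CPM in LN and 10.7 CPM in the obese library. Lower still, 26 autosomal genes had under 2 CPM in both 4-month adipose libraries, of 3771 that reached 20 CPM in the other 3 libraries, and 6 of these 26 share exon sequence with another gene. The highest in this group were Gm17131, Gm17132, Gm26905 and Gm29562, predicted genes, and Cdk2ap2, which binds a cell cycle kinase. Cdk2ap2 had 625 CPM at 10 months and 1420 CPM in LN but was listed at 0 in both 4-month adipose libraries. Other genes were missing from 1 library only. Of 3606 autosomal genes that reached 20 CPM in the other 4 libraries, 22 were listed at 0 in the 4-month lean one. Ccnb2, Itgae, Mrps10 and Msmo1, given below, were among these 22. The same held for 3 of 3581 genes in the 10-month Foxp3Cre library and 0 of 3440 in the obese one. In the library labelled Med23 KO it held for 64 of 3708. In bulk libraries fewer cells of a type and less RNA per cell cannot be told apart.

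Of the 13200 genes, 3798 (28.8%) were higher at 10 months by 2-fold or more and 4204 (31.8%) were lower by 2-fold or more on the log2(CPM + 1) scale, and 5198 were within 2-fold. The median log2 ratio of 10 months over 4 months was -0.14. These shares are the background against which every gene group below has to be read. A gene listed at 0 in 1 library and measured in the other always passed the threshold, and this alone gave 2369 of the higher and 2098 of the lower genes. Among the 8733 genes above 0 in both libraries, 1429 (16.4%) were higher and 2106 (24.1%) lower. Ratios were smaller at high expression. Of 1900 genes with a mean of 100 CPM or more, 218 were higher and 200 lower, with a median of -0.04.

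**Figure D1:**
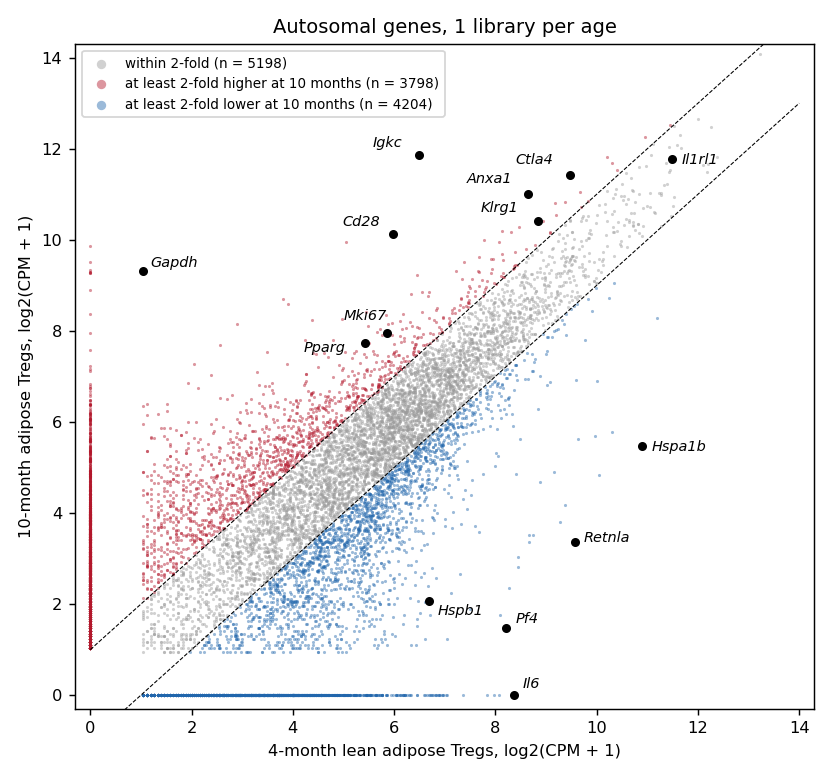
Each point is 1 of the 13200 autosomal genes, with its log2(CPM + 1) in 4-month lean (x axis) and 10-month (y axis) adipose Tregs, dashed lines marking 2-fold and colours the 3798 higher, 4204 lower and 5198 remaining genes. Most highly expressed genes lie between the lines, Hspa1b, Retnla and Il6 lie far below them, and Igkc, Cd28 and Gapdh far above.

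Heat shock genes stood lower at 10 months. They encode chaperones and their cofactors, which heat shock factor 1 (HSF1) induces through repeated GAA blocks, called heat shock elements, when proteins misfold. Of 20 measured members, 10 were at least 2-fold lower, 1 was higher and 9 were within 2-fold, with a median log2 ratio of -1.09 beside -0.14 over all genes. The promoters of 3 lower members show the element. They are the 250 bases before the transcription start, written 5′ to 3′ on the gene's strand, from RefSeq on build GRCm38.p6, with matches to GAANNTTC (N is any base; the motif reads the same way on both strands) in capitals. Hspa1a lies at chr17:34972157-34972406 on the minus strand, Hspb1 at chr5:135887669-135887918 on the plus strand and Hspe1 at chr1:55087898-55088147 on the plus strand.
Hspa1a: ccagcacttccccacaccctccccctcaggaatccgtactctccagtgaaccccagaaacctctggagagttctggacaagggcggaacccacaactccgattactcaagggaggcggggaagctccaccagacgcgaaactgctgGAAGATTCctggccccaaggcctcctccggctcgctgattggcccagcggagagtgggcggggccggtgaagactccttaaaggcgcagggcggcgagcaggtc
Hspb1: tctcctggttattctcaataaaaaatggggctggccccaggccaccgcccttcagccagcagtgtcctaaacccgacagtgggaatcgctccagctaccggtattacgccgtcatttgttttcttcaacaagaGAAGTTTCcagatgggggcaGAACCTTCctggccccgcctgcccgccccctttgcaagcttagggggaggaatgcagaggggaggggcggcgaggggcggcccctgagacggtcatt
Hspe1: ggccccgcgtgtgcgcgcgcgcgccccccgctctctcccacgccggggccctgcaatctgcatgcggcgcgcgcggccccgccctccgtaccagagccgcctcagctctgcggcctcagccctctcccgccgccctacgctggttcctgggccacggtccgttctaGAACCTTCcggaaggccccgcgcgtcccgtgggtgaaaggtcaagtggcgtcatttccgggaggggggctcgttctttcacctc

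GAANNTTC was found in 6 of 16 heat shock genes that had a RefSeq promoter (37.5%), in 4 of the 8 lower ones among them and in 2 of the 7 within 2-fold, against 452 of the 8854 promoters of all measured genes (5.11%). A match describes the letters and does not show that HSF1 bound there.

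The largest ratios belonged to the inducible HSP70 genes, which hold client proteins for refolding. Hspa1b had 43.6 CPM at 10 months and 1908 CPM at 4 months, 43.7-fold lower (39.7 to 48.3). Hspa1a had 6.01 and 347 CPM, 57.7-fold lower (44.5 to 76.2). Their promoters were identical at 247 of 250 positions, and as near-identical copies they may share reads, so the split between them is uncertain. Hspb1, a small chaperone, had 3.21 and 102 CPM. Hsph1, the nucleotide exchange factor HSP110, had 50.9 and 1002 CPM, 19.7-fold lower (17.97 to 21.6). Bag3, another HSP70 cofactor that HSF1 induces, had 15.2 and 143 CPM. All of these are known to be induced by stress. Smaller ratios were seen for the inducible HSP90 gene Hsp90aa1, with 119 and 767 CPM, for Dnajb1, an HSP40 that feeds clients to HSP70, with 111 and 519 CPM, and for Hspe1, the mitochondrial co-chaperonin, with 122 and 399 CPM. The constitutive HSP70 gene Hspa8 had 1268 and 1937 CPM and was within 2-fold, and Ahsa1, an HSP90 activator, was the higher member at 54.9 and 16.7 CPM.

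The remaining libraries placed these values further. In LN, Hspa1a, Hspa1b and Bag3 were listed at 0 and Hsph1 had 11.4 CPM. The obese 4-month library lay between, with 578 CPM of Hspa1b and 314 CPM of Hsph1, and the library labelled Med23 KO was low, with 36.1 and 81.4 CPM. In 5 of the 20 genes, among them Hspa1a, Hspa1b, Hsph1 and Bag3, both 10-month libraries were at least 2-fold below both 4-month adipose libraries, as they were in 1420 of 16017 genes overall (8.87%). The lean library that stood highest in heat shock genes also held the most fibroblast marker RNA, described below, at a summed 1365 CPM against 64.5 CPM at 10 months. The obese library, intermediate in heat shock genes, held 36.8 CPM of it. The part of these other markers in the heat shock values was not tested.

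Genes of cell division stood higher at 10 months. Of 29 measured members of a proliferation list, 17 were at least 2-fold higher and 3 lower, with a median log2 ratio of 1.48. Listing at 0 in the 4-month library accounted for 10 of the 17, and of the 18 members above 0 in both libraries 7 were higher and 2 lower. Late cell cycle genes are known to be repressed in resting cells through a cell cycle homology region, TTTGAA in its core, and activated through CCAAT boxes. Promoters of 3 higher members are given in the same form as above, with CCAAT and TTTGAA in capitals. Where the match is on the opposite strand it reads ATTGG or TTCAAA. Ccnb2 lies at chr9:70421555-70421804 on the minus strand, Kif11 at chr19:37376132-37376381 on the plus strand and Cdk1 at chr10:69352913-69353162 on the minus strand.
Ccnb2: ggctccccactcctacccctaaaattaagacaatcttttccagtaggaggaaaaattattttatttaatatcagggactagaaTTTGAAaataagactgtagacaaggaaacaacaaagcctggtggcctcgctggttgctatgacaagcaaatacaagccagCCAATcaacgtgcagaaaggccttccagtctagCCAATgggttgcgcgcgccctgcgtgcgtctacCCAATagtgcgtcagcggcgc
Kif11: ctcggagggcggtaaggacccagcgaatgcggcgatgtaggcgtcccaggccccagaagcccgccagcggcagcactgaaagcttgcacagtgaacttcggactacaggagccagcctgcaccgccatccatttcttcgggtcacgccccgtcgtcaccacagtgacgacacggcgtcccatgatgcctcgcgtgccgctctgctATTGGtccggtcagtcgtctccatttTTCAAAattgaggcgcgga
Cdk1: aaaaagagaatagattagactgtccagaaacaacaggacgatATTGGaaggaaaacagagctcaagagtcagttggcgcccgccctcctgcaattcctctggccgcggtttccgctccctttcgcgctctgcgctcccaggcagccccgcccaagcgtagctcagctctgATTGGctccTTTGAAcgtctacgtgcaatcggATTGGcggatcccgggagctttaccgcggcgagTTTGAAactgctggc

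On either strand CCAAT was in 20 of the 25 proliferation promoters available (80%) and TTTGAA in 8 of 25 (32%), against 36.2% and 11.03% of the 8854 promoters. TTTGAA was in 7 of the 14 higher members, 1 of the 8 within 2-fold and 0 of the 3 lower ones. CCAAT was in 11 of 14, 6 of 8 and 3 of 3. Presence of these letters does not show their use in these cells.

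Mki67, which encodes the Ki-67 protein of cycling cells, had 248 CPM at 10 months and 57.1 CPM at 4 months, 4.35-fold higher (3.94 to 4.799). Top2a, the topoisomerase that untangles chromosomes for mitosis, had 156 and 55.3 CPM, 2.82-fold higher (2.54 to 3.14). Both genes were also higher in both 10-month than in both 4-month adipose libraries, with 323 and 189 CPM in the library labelled Med23 KO and 128 and 49.5 CPM in the obese one. Mitotic genes listed at 0 at 4 months included the cyclin gene Ccnb2 (81.9 CPM at 10 months), the motor gene Kif11 (63.6), the kinetochore gene Cenpf (72.0) and the spindle gene Nusap1 (48.6). Cdk1, the mitotic kinase, had 27.7 and 2.34 CPM, and Ube2c, which tags mitotic cyclins for destruction, had 63.3 and 3.28 CPM. S phase genes were mixed. Pcna, the DNA polymerase clamp, had 433 and 193 CPM, and Tk1, which makes thymidine nucleotides, had 39.7 and 0. Mcm3, a subunit of the replicative helicase, went the other way at 8.39 and 22.6 CPM. Stmn1, a microtubule regulator of dividing cells, had 341 and 92.6 CPM but only 21.8 CPM in the library labelled Med23 KO. In 6 proliferation genes, among them Top2a, Tk1, Nusap1, Kif11 and Cenpf, both 10-month libraries were at least 2-fold above both 4-month adipose libraries, which held for 660 of 16017 genes (4.12%). In LN Tregs Mki67 had 175 and Ccnb2 115 CPM, so the 4-month lean adipose library was the lowest of all 5 for both.

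**Figure D2:**
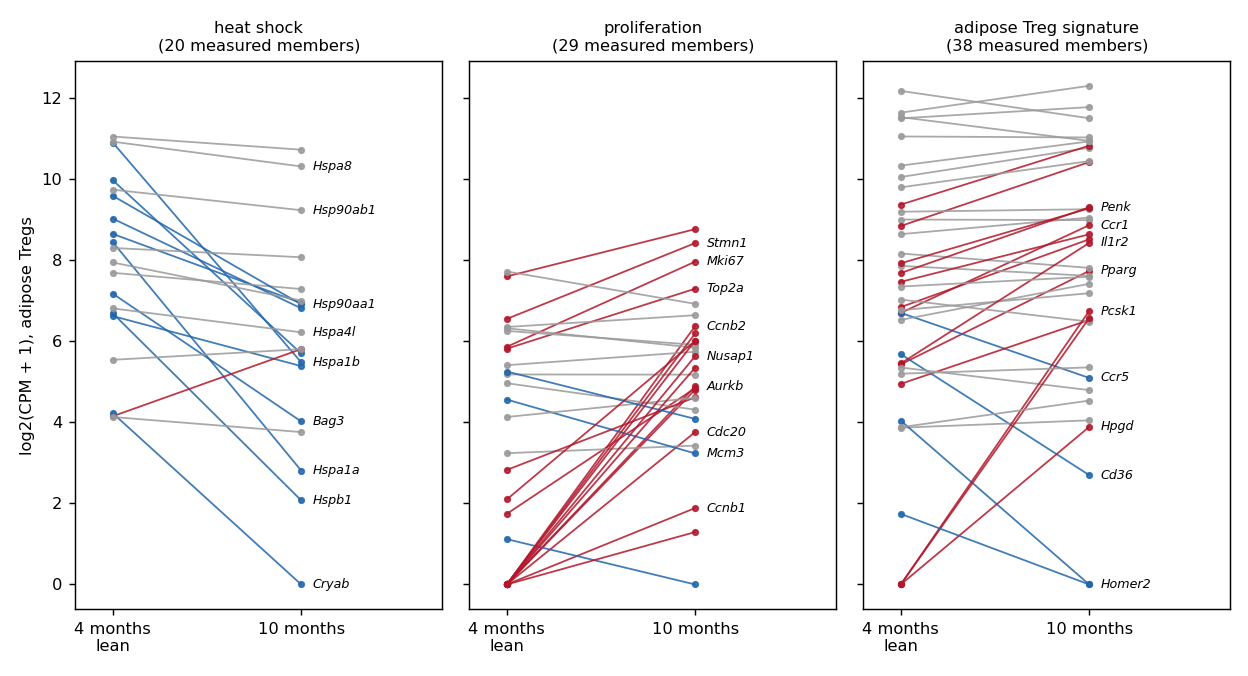
Each line joins the log2(CPM + 1) of 1 gene in 4-month lean and 10-month adipose Tregs, for 20 heat shock, 29 proliferation and 38 adipose Treg signature genes, with red for at least 2-fold higher, blue for lower and grey for the rest. Hspa1b, Hspa1a and Hspb1 run steeply down to 10 months, 10 proliferation genes start at 0, and 21 signature genes are grey.

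The adipose Treg signature was present at both ages and, where it differed in this pair, more of it stood higher than lower at 10 months. Of its 38 members 13 were higher, 4 lower and 21 within 2-fold, with a median log2 ratio of 0.51. Over all genes 28.8% were higher and 31.8% lower. Between the library labelled Med23 KO and the obese library, 7 of 36 were higher and 16 lower in the former, with a median of -0.70. The receptors of the signature come first. Il1rl1, which encodes ST2, had 3497 CPM at 10 months and 2886 CPM at 4 months, 1.21-fold higher (1.19 to 1.23), and 46.5 CPM in LN. Klrg1, an inhibitory receptor of mature Tregs, had 1365 and 458 CPM, 2.98-fold higher (2.88 to 3.09). The chemokine receptor genes Ccr1 and Cxcr6, which guide T cells into tissue, had 463 and 103 CPM and 1808 and 660.0 CPM. Il1r2, a decoy receptor for interleukin-1, had 342 and 42.7 CPM, 8.004-fold higher (7.18 to 8.94).

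Pparg, the nuclear receptor of this population, had 212 and 42.03 CPM, 5.04-fold higher at 10 months (4.50 to 5.65), and was listed at 0 in LN and in the library labelled Med23 KO. Atf3, a stress-induced factor on the list, had 619 and 241 CPM and was also past 2-fold. Gata3, which drives ST2 expression, had 506 and 511 CPM. Batf and Irf4, factors that act together in effector Tregs, had 195 and 231 CPM and 223 and 285 CPM. Prdm1 (Blimp-1) had 88.4 and 129 CPM, Rora 2082 and 2117 CPM, and Id2, an inhibitor of E proteins, 5034 and 3181 CPM. From Gata3 to Id2 each of these factors was within 2-fold between the ages. Among secreted products Il10, an anti-inflammatory cytokine, had 1746 and 1058 CPM, and Areg, a tissue repair growth factor, had 1946 and 1287 CPM, both within 2-fold. Penk, which encodes an enkephalin precursor, had 631 and 204 CPM and was high in both 10-month libraries (1141 CPM in the one labelled Med23 KO) over both 4-month adipose libraries (118 CPM in the obese one). Pcsk1, a protease that cuts such precursors, had 106 CPM and was listed at 0 at 4 months.

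Lipid genes of the signature went in both directions. Dgat1, which makes triglycerides, had 2892 CPM at 10 months and 4614 CPM at 4 months. Cd36, a fatty acid transporter through which adipose Tregs take up lipid, had 5.49 and 50.2 CPM, 9.15-fold lower (6.86 to 12.4), and reached 362 CPM in the obese library. Macrophages also carry Cd36, and their summed markers, given below, were ordered the same way over these 3 libraries. The library labelled Med23 KO departed from this order. It had more Cd36 (33.3 CPM) than the 10-month Foxp3Cre library but a lower sum of macrophage markers (402 against 745 CPM). The part of macrophages in the Cd36 values was not tested. Homer2, a scaffold protein gene of the signature, was listed at 0 and had 15.5 CPM. Gdpd3, a lysophospholipase D, had 94.0 CPM and was listed at 0 in both 4-month adipose libraries. It had 85.3 CPM in LN and 15.9 CPM in the library labelled Med23 KO, so it too was low in both 4-month adipose libraries alone. Several of the higher signature genes were low in the second 10-month library. In the library labelled Med23 KO, Klrg1 had 12.2 CPM, Cxcr6 80.1 CPM, Il10 65.7 CPM, and Ccr1 was listed at 0. In 4 of the 38 genes, Gdpd3 among them, both 10-month libraries were at least 2-fold above both 4-month adipose libraries, and in 1 below. Over 16017 genes these shares were 4.12% and 8.87%.

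Of 24 measured core Treg genes 7 were higher, 2 lower and 15 within 2-fold, with a median log2 ratio of 0.24. The higher count was near the 28.8% of all genes, of which 31.8% were lower. Ctla4, the inhibitory receptor that strips costimulatory ligands from antigen-presenting cells, had 2747 CPM at 10 months and 706 CPM at 4 months, 3.89-fold higher (3.78 to 4.00). It had 2338 CPM in the library labelled Med23 KO, 886 CPM in the obese library and 1262 CPM in LN, so the 10-month libraries were the highest of all 5. Itgae, an integrin that binds E-cadherin, had 26.9 CPM and was listed at 0, and Gpr83, a Treg-enriched receptor, had 20.4 CPM and was listed at 0. Nt5e (CD73), which makes immunosuppressive adenosine, was lower, at 88.3 and 293 CPM, 3.32-fold (3.07 to 3.59).

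Effector and checkpoint genes had a similar balance, with 6 of 24 higher, 2 lower and a median of 0.35. Here too the higher count was near the 28.8% of all genes. Icos, a costimulatory receptor of effector Tregs, had 1147 and 318 CPM, 3.61-fold higher (3.46 to 3.77), with 1064 CPM in the library labelled Med23 KO and 345 CPM in the obese one. In LN it had 1249 CPM, so Icos was low in both 4-month adipose libraries alone. The LN and lean values come from the same table. Whether Icos was counted differently between libraries was not tested. Ccr8, a chemokine receptor of tissue Tregs, had 594 and 86.1 CPM, 6.91-fold higher (6.396 to 7.47), but the obese library (291 CPM) exceeded the library labelled Med23 KO (123 CPM). Havcr2 (TIM-3) had 12.3 and 1.64 CPM, and Tnfrsf8 (CD30) had 9.64 and 48.7 CPM.

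In the proximal T cell receptor pathway 6 of 24 genes were higher, 0 lower and 18 within 2-fold, with a median of 0.37. Over all genes 28.8% were higher and 31.8% lower. All 24 were above 0 in both libraries, and among all such genes 16.4% were higher and 24.1% lower. Cd28, the main costimulatory receptor of T cells, had 1125 CPM at 10 months and 62.2 CPM at 4 months, 18.1-fold higher (16.6 to 19.8). Its values were 881 CPM in the library labelled Med23 KO, 50.4 CPM in the obese library and 689 CPM in LN. Low values in both 4-month adipose libraries alone are also what Gapdh showed. The LN and lean values of both genes come from the same table. Whether Cd28 was counted differently between libraries was not tested. Cd247, the zeta chain of the receptor, had 133 and 18.3 CPM, but 126 CPM in the obese library. Bcl10, an adaptor that links the receptor to NF-kB, had 158 and 48.7 CPM.

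Genes of naive and lymphoid T cells showed no common direction, with 5 of 20 higher and 6 lower. Ccr7, which leads cells to lymph nodes, had 229 and 86.2 CPM, 2.66-fold higher at 10 months (2.44 to 2.89). Tcf7 and Bach2, transcription factors of resting T cells, were lower, at 9.33 and 25.1 CPM and at 9.22 and 32.0 CPM. Both were higher in the library labelled Med23 KO, at 89.2 and 65.1 CPM. Il6ra, the interleukin-6 receptor, had 14.9 and 54.6 CPM, and Cxcr5, a follicle-homing receptor, had 11.9 CPM and was listed at 0.

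Among helper T cell cytokines and regulators 2 of 15 measured genes were higher and 6 lower, with a median of -0.62. Ifng, the type 1 cytokine interferon-γ, was listed at 0 at 10 months and had 118 CPM at 4 months. It had 106 CPM in the library labelled Med23 KO, 138 CPM in the obese library and 131 CPM in LN, so the 10-month Foxp3Cre library was alone in lacking it. Il17a, the type 17 cytokine, was listed at 0 and had 15.1 CPM. Il6 was listed at 0 and had 329 CPM, the lowest log2 ratio among the autosomal genes named (-8.37). Il6 was 42.02 CPM in the obese library and listed at 0 in the remaining ones. It is a product of fibroblasts and macrophages as well as T cells, and the markers of both were higher in the 4-month lean library than at 10 months; their part in the Il6 value was not tested.

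Interferon response genes split, with 8 of 28 higher and 10 lower. Ifit2, an antiviral RNA-binding protein, was listed at 0 and had 48.5 CPM, Oasl1, an OAS-like protein, was listed at 0 and had 22.7 CPM, and Ifih1, the RNA sensor MDA5, had 13.5 and 110 CPM, 8.18-fold lower (6.80 to 9.90). Irf7, which amplifies interferon production, had 54.5 and 8.31 CPM, and Rsad2 (viperin) had 12.7 CPM and was listed at 0. Immediate early and NF-kB genes, which are induced within minutes by stimulation, were mostly within 2-fold, at 23 of 29. Fos had 632 and 199 CPM, Jund 65.1 and 15.1 CPM, and Jun 51.1 and 133 CPM. Feedback regulators of these pathways were evenly split, with 5 of 19 higher and 5 lower. Dusp6, a phosphatase for ERK, had 27.0 and 6.09 CPM, Rgs3, a brake on G protein signals, had 7.36 and 25.4 CPM, and Socs3, an inhibitor of cytokine receptors, had 30.7 and 135 CPM.

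Genes of the unfolded protein response, which serves the endoplasmic reticulum, had 6 of 20 higher, near the 28.8% of all genes, and 3 lower. Their median of 0.49 was opposite in sign to that of the heat shock genes. Between the library labelled Med23 KO and the obese library, 4 were higher and 5 lower in the former, with a median of -0.0065. Hspa5 (BiP), the main chaperone of this response, had 854 CPM at 10 months and 334 CPM at 4 months, 2.55-fold higher (2.45 to 2.67). Dnajb9, a BiP cofactor, had 84.8 and 16.3 CPM, and Pdia4, a disulfide isomerase, had 36.3 and 7.03 CPM. Chac1, a target of the integrated stress response, was listed at 0 and had 25.2 CPM. The obese library had 602 CPM of Hspa5, about the value of the library labelled Med23 KO at 601 CPM. Plasma cells also carry much BiP, and immunoglobulin RNA was higher at 10 months, as given below; its part in these values was not tested.

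Nuclear genes of oxidative phosphorylation, the respiratory chain and ATP synthase, had 20 of 73 members lower and 4 higher, with a median of -0.51. Over all genes 31.8% were lower, a share that includes genes listed at 0 at 10 months, of which this list had none. Of its 72 members above 0 in both libraries 20 were lower and 3 higher. Among all genes above 0 in both, 24.1% were lower and 16.4% higher. Ndufs6, a complex I subunit, had 34.3 CPM at 10 months and 172 CPM at 4 months, and Uqcr11, a complex III subunit, 71.4 and 320 CPM. The higher members included Uqcrc1, a complex III core protein, with 183 and 23.4 CPM, Ndufs3 with 109 CPM and a listed 0, and Atp5b, the catalytic ATP synthase subunit, with 559 and 161 CPM. Ndufs3 had 165 CPM in LN and is 1 of the 26 genes set apart above as under 2 CPM in both 4-month adipose libraries. Cytoplasmic ribosomal proteins were mostly within 2-fold, at 64 of 75, with a median of -0.34. Rpl13a had 246 CPM and a listed 0, Rpl7a 239.8 and 60.8 CPM, and Rpl17 349 and 113 CPM, and in all 3 both 4-month adipose libraries were at least 2-fold below both 10-month ones. Such genes have many processed copies in the genome, so their reads may have been split.

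Glycolysis and hypoxia genes were split, with 9 of 24 higher and 8 lower. Besides Gapdh, the higher ones included Ldha, which makes lactate, with 788 and 202 CPM, 3.89-fold (3.69 to 4.10), Slc2a1 (GLUT1, the glucose transporter) with 48.0 and 5.74 CPM, Bnip3, a mitophagy receptor, with 35.1 and 3.75 CPM, and Aldoc, an aldolase, with 16.8 CPM and a listed 0. Slc2a1 had 39.2 CPM in the library labelled Med23 KO and 3.87 CPM in the obese one, so both 10-month libraries were above both 4-month adipose libraries. Among genes of lipid uptake and fatty acid metabolism 10 of 30 stood higher and 6 lower. Acadvl, the very-long-chain acyl-CoA dehydrogenase of fatty acid oxidation, had 34.7 CPM and a listed 0, as did Pnpla2, the triglyceride lipase ATGL, at 28.2 CPM, whereas Scd1, which desaturates fatty acids and is abundant in adipocytes, was listed at 0 and had 36.8 CPM. Cholesterol synthesis and sterol regulation included 5 higher and 11 lower genes among 24, at a median of -0.53. The synthesis genes Idi1 (210.3 and 44.3 CPM), Cyp51 (80.4 and 9.48 CPM) and Msmo1 (43.3 CPM and a listed 0) were among the higher ones, and Abcg1, a cholesterol exporter, was listed at 0 and had 19.3 CPM. Msmo1 was missing from the 4-month lean library alone, with 48.7 CPM in the obese library and 53.3 CPM in LN.

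Insulin and growth factor signalling had 7 of 18 genes lower and 2 higher, with a median of -0.70. Over all genes 31.8% were lower and 28.8% higher. Between the library labelled Med23 KO and the obese library, 4 of 17 were lower and 3 higher in the former. The median there was -0.31, as over all genes of that pair. Insr, the insulin receptor had 8.08 CPM at 10 months and 91.6 CPM at 4 months, 11.3-fold lower (8.97 to 14.5). Irs2, its docking protein, had 24.5 and 473 CPM, 19.3-fold lower (16.96 to 22.2), and Igf1r, the receptor of insulin-like growth factor 1, had 1.24 and 35.9 CPM. Grb10, an adaptor that inhibits both receptors, was listed at 0 and had 11.5 CPM. Irs2 was also lower in the library labelled Med23 KO (15.0 CPM) than in the obese library (173 CPM), and it was listed at 0 in LN. Insr did not separate the ages in this way, with 46.4 and 66.0 CPM.

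Further groups were split or mostly within 2-fold. Proteasome subunits had 6 of 36 higher and 1 lower, with Psmd4, Psmd1 and Psmc4 of the regulatory particle at 126 and 26.6 CPM, 92.9 and 24.6 CPM, and 89.4 and 25.8 CPM. Mitochondrial ribosomal proteins had 14 of 73 higher and 16 lower, and Mrpl38, Mrpl49 and Mrps10 were listed at 0 at 4 months against 35.2, 34.8 and 26.6 CPM. Mediator, a large coactivator complex that relays signals to RNA polymerase II, had 5 of 26 higher and 9 lower. Its subunit Med23 had 6.32 CPM at 10 months and 46.8 CPM at 4 months, 7.41-fold lower (5.65 to 9.87), and 15.5 CPM in the library labelled as its knockout, above the 10-month Foxp3Cre library. These counts cover the whole gene, so loss of the floxed part cannot be read from them. Med19 had 2.59 and 15.9 CPM, and Med26 had 11.5 CPM and a listed 0. Clock genes had 3 of 16 higher and 4 lower, among them the repressors Cry2 (0 and 16.3 CPM), Per3 (6.01 and 22.4 CPM) and Nr1d1 (10.6 and 0 CPM). The BCL2 family of survival regulators had 3 of 18 higher and 5 lower, among them Bbc3 (PUMA, 10.6 and 0 CPM), Bmf (0 and 14.5 CPM) and Bcl2a1a (2.69 and 33.0 CPM), the last of a set of near-identical copies.

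A list of senescence and ageing-associated genes had 4 of 18 higher, 2 lower and 12 within 2-fold, with a median of 0.52. Glb1, the lysosomal β-galactosidase used as a senescence stain, had 31.5 and 1.99 CPM, and Gadd45a, a DNA damage response gene, had 16.4 and 4.33 CPM. Annexins and S100 proteins, which bind calcium and membranes, had 5 of 16 higher, near the 28.8% of all genes, and 0 lower. Between the library labelled Med23 KO and the obese library, 1 of 15 was higher and 11 were lower in the former, with a median of -1.30. Anxa1, an anti-inflammatory annexin, had 2065 CPM at 10 months and 399 CPM at 4 months, 5.17-fold higher (4.99 to 5.37). In the library labelled Med23 KO it had 4.13 CPM, and in the obese library 322 CPM. Anxa2 had 312 and 135 CPM, and Anxa11 16.1 CPM and a listed 0.

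**Figure D3:**
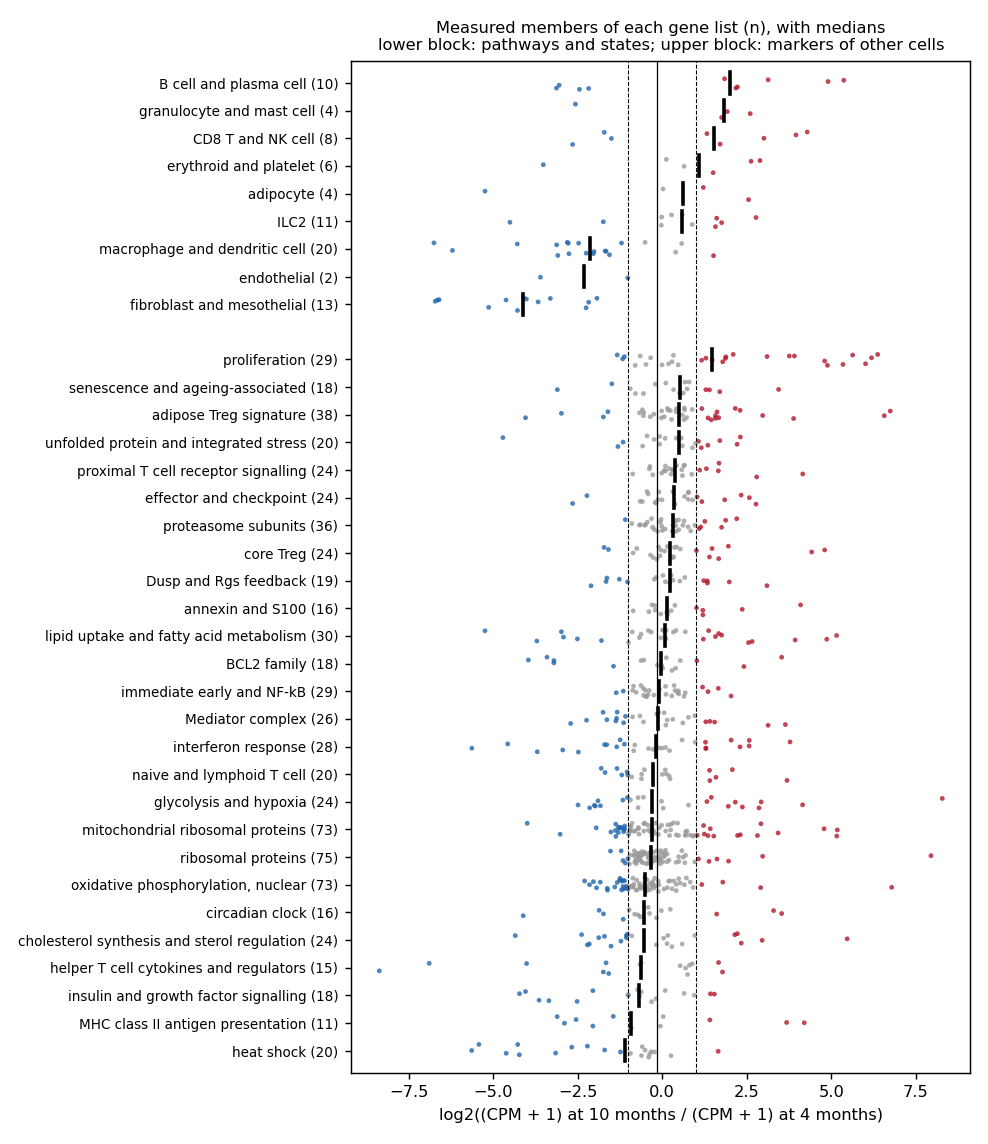
Each point is the log2 ratio of 10 months over 4 months for 1 measured member of a list, the short bar is the list's median, the solid line the median of all genes (-0.14) and the dashed lines 2-fold, with pathways in the lower block and markers of other cells in the upper. Proliferation has the highest pathway median (1.48), heat shock the lowest (-1.09), and all 13 fibroblast and mesothelial genes lie on the lower side.

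Markers of cells other than Tregs also differed between the libraries. Those of fibroblasts and mesothelium, the stromal cells of fat, were lower at 10 months in all 13 measured genes of 18 on the list, and 9 of the 13 were listed at 0. They summed to 64.5 CPM at 10 months, 1365 CPM at 4 months, 36.8 CPM in the obese library, 0 in the library labelled Med23 KO and 9.59 CPM in LN. Dcn (decorin), a matrix proteoglycan, had 48.0 and 791 CPM, and Col3a1, a fibrillar collagen, was listed at 0 and had 104 CPM. The defining mesothelial genes Msln and Upk3b were at 0 in both libraries. High stromal RNA was thus a property of the lean 4-month library alone among the 5.

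Macrophage and dendritic cell markers were lower in 16 of 20 measured genes of 25 on the list and higher in 1, with a median of -2.14. They summed to 745 CPM at 10 months, 2373 CPM at 4 months, 9172 CPM in the obese library, 402 CPM in the library labelled Med23 KO and 39.5 CPM in LN. Retnla, a secreted product of alternatively activated macrophages, had 9.33 and 759 CPM, 81.4-fold lower (66.1 to 101.3). The library labelled Med23 KO had 259 CPM of Retnla and the obese library 701 CPM, so the other 10-month library was far less low. Pf4 (CXCL4), made by platelets and tissue macrophages, had 1.76 and 296 CPM, and Mrc1, the mannose receptor CD206, had 25.5 and 184 CPM. Lyz2, lysozyme, had 477 and 320 CPM and was within 2-fold. Of the 25 genes, 9 were listed at 0 at 10 months and 6 at 4 months. In 15 of them both 10-month libraries were at least 2-fold below both 4-month adipose libraries. Genes of MHC class II, which present antigen on macrophages, dendritic cells and B cells, had 5 of 11 lower and 3 higher. H2-Aa had 77.2 and 456 CPM, with 53.8 CPM in the library labelled Med23 KO and 2416 CPM in the obese one, and H2-DMb1, which helps load peptides, had 4.25 and 44.1 CPM. H2-Oa (11.8 CPM) and Ifi30 (17.4 CPM), also of this pathway, were listed at 0 at 4 months.

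Immunoglobulin RNA was higher at 10 months. Of 24 measured immunoglobulin gene segments 23 were higher, and together they summed to 7035 CPM against 350.2 CPM, with 1281 CPM in the library labelled Med23 KO, 673 CPM in the obese library and 704 CPM in LN. At 4 months 19 of the 24 were listed at 0, and a measured gene listed at 0 there always counts as higher. The count of 23 was thus largely set by this listing. Over all genes 28.8% were higher. Igkc and Ighm, given next, were above 0 in both libraries. Igkc, the kappa light chain constant region, had 3739 and 89.5 CPM, 41.8-fold higher (38.9 to 44.97), Ighm, the heavy chain of IgM, had 1023 and 218 CPM, and Jchain, which joins secreted antibody units, had 994 and 32.2 CPM. The B cell gene Ms4a1 and the plasma cell gene Sdc1 were listed at 0 in both libraries. On the B and plasma cell list 11 of the 17 genes were at 0 at 10 months and 10 at 4 months. Of its 10 measured genes 6 were higher and 4 lower. The 4 lower ones were all listed at 0 at 10 months. With protein-coding genes only, the median log2 ratio of this list was -0.16. Other lists differed as well. The CD8 T and NK cell list summed to 348 and 835 CPM, most of it Ccl5 (180.0 and 511 CPM), a chemokine of effector T cells. Killer receptor genes Klrk1 (18.5 CPM) and Klrc1 (14.5 CPM) were listed at 0 at 4 months. Erythroid and platelet genes summed to 1208 and 595 CPM, and to 8939.8 CPM in the library labelled Med23 KO, with the globins Hba-a2 at 275 and 43.7 CPM and Hbb-bs at 504 and 177 CPM, and the platelet integrin Itga2b at 0 and 10.4 CPM.

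Adipocyte markers were near 0 at both ages, with 12 of 15 listed at 0 in each library, Adipoq and Plin1 among them. Fabp4, a lipid carrier shared by adipocytes, macrophages and endothelium, had 33.2 and 13.7 CPM, and 294 CPM in the obese library. Of 14 endothelial genes 2 were measured, Pecam1 at 27.3 and 56.2 CPM and Egfl7 at 0 and 11.1 CPM. Granulocyte and mast cell genes had 4 of 20 measured, at sums of 10.3 CPM at 10 months and 4.92 CPM at 4 months. The list for group 2 innate lymphoid cells shares Il1rl1, Gata3, Areg, Klrg1 and Rora with adipose Tregs, so it does not separate those cells, and 4 of its 11 measured genes were higher and 2 lower. Arg1, an arginine-degrading enzyme on that list, was listed at 0 and had 21.7 CPM. The part of these other cells in the pathway values above was not tested.

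**Figure D4:**
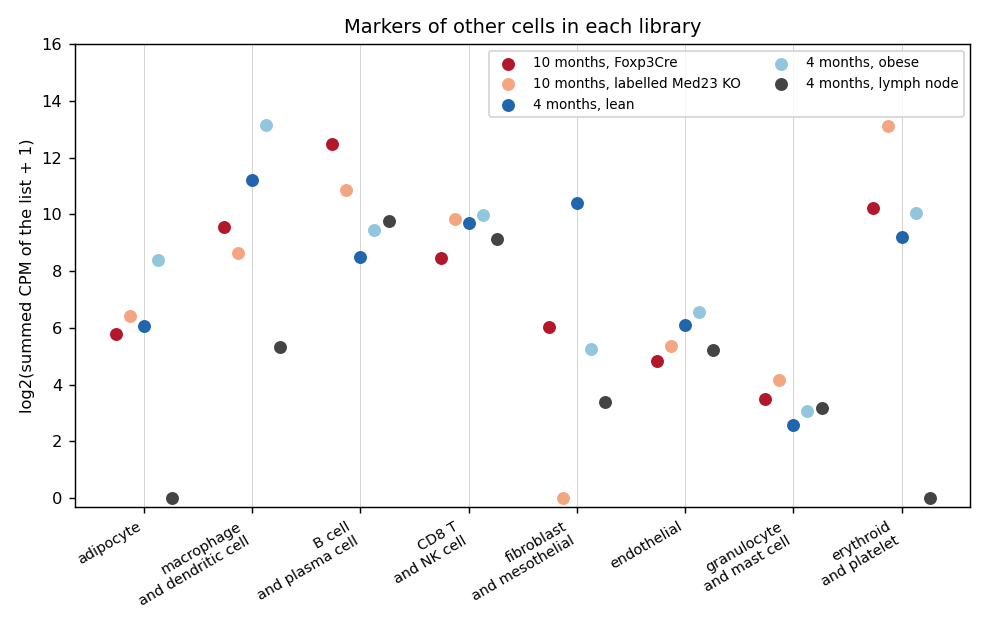
Points give, for 8 lists of markers of other cells (x axis), the summed CPM as log2(sum + 1) in each of the 5 libraries. The 4-month lean library stands alone in fibroblast genes (1365 CPM), both 4-month adipose libraries exceed both 10-month ones in macrophage genes, and the 10-month Foxp3Cre library is highest in B and plasma cell genes.

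The single genes with the most extreme ratios, chosen by the rule given with the processing and leaving out the group that was near 0 in both 4-month adipose libraries, came next. The 12 with the lowest ratios were Il6, Sult1e1, Dppa5a, Ccl12, Ifng, Ptx3, Inmt, Pf4, Cp, Tnfaip2, Col3a1 and C3. Apart from Pf4 they were all listed at 0 at 10 months. Sult1e1, an estrogen sulfotransferase, had 249.1 CPM at 4 months, Dppa5a, an RNA-binding protein of early embryos, 227 CPM, and Ccl12, a monocyte chemoattractant, 123 CPM. Ptx3, a pentraxin of innate immunity, had 110 CPM, Inmt, a methyltransferase, 107.5 CPM, Cp, the copper carrier ceruloplasmin, 106 CPM, Tnfaip2, a TNF-induced gene, 105 CPM, and C3, the complement component, 99.2 CPM. Except for Ccl12, Ifng, Pf4 and Tnfaip2, each of the 12 was lower in the obese than in the lean library, and Ptx3 was listed at 0 there. Those genes were highest in the library that also held the most stromal marker RNA, and the part of stromal RNA in them was not tested.

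The 12 with the highest ratios were Gapdh, Rpl13a, Zfp990, Pcsk1, Gdpd3, Qpct, Bace2, Tmem72, Ccnb2, Fastkd2, Tmem176b and Fam177a, and all of them except Gapdh were listed at 0 at 4 months. Zfp990, a zinc finger gene, had 143 CPM at 10 months and 102 CPM in the library labelled Med23 KO, and was listed at 0 in the 3 libraries of 4-month mice. Qpct, which cyclises N-terminal glutamine, had 88.6 CPM, Tmem72, a membrane protein, 82.7 CPM, Fastkd2, a mitochondrial RNA-binding protein, 81.8 CPM, and Fam177a 72.8 CPM. Bace2, an aspartic protease, had 86.6 CPM and Tmem176b, a membrane protein of myeloid and type 17 lymphoid cells, had 81.3 CPM. Both were listed at 0 in the library labelled Med23 KO, and Tmem176b had 128 CPM in the obese library.

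A second pair of ages, the library labelled Med23 KO at 10 months and the obese library at 4 months, shares no library with the first but differs from it in genotype and diet. It had 14527 measured genes, of which 3460 (23.8%) were higher and 5773 (39.7%) lower, with a median log2 ratio of -0.31. Of 11710 genes measured in both pairs, 3116 were higher in the first and 2321 in the second, and 973 in both, which is 31.2% of the first set and 41.9% of the second. Of all 11710, 19.8% were higher in the second pair. Among those higher in the first, 1178 (37.8%) were lower in the second, close to the 36.6% of all genes. There were 3476 lower genes in the first pair and 4281 in the second, with 1790 in both, 51.5% and 41.8% of the sets, beside 36.6% overall. The sexes and tables are split the same way in both pairs, so a shared direction cannot be told apart from these. Of the gene groups, heat shock had 0 of 20 higher and 7 lower in the second pair (median -0.61), and proliferation had 13 of 31 higher and 4 lower (median 0.65). The adipose Treg signature had 7 of 36 higher and 16 lower (median -0.70), whereas more of it was higher than lower in the first pair. These counts stand beside 23.8% higher and 39.7% lower over all genes of the second pair. The lower counts of the heat shock and signature genes were near that share. Of the 152 genes named here that were past 2-fold in the first pair, 45 had the opposite sign in the second.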

How the data were processed

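Messenger RNA of sorted Tregs was sequenced in 5 libraries, 1 per group, from kit-made total RNA libraries. Bowtie2 2.0.6, TopHat2 2.0.9 and build mm8 are named per the submitters' processing notes. The counter, its annotation, the strand setting and the scaling are steps not given in the sources used here. The authors deposited 3 tables of 2 libraries, each with a signal (a scaled read count) per library, a log2 fold change, a p-value and a q-value. The authors' log2 fold changes, p-values and q-values set other pairs of libraries against each other and were not used. Samples were grouped by title.

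Each signal column was rescaled to 1000000 (CPM). An NA was taken as 0, which touched 1011 of the 13200 genes at 10 months and 888 at 4 months. Values under 1 scaled count are listed as 0, so the smallest nonzero value is 9 reads in both libraries (0.933 and 1.05 CPM). Dividing by the worth of 1 read gave whole reads for 100% of values, within 0.01 read, and these served only for counting intervals. Without molecular identifiers, reads may be PCR copies of 1 molecule. Ratios are log2((CPM + 1)/(CPM + 1)), which understates the ratio of low genes, and folds of single genes carry no pseudocount. No fold is given where a value is listed at 0. Symbols, chromosomes, gene classes and exon overlaps came from GENCODE M21, and promoters from RefSeq. The deposited tables hold no coordinates.

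No replicate exists, so no test was made and genes past 2-fold were counted. The genes and the 35 gene lists (26 pathways, 9 other cell types) were chosen with earlier results of these data known. Named genes were the 12 highest and 12 lowest ratios at 20 CPM or more (without predicted genes, small RNAs, pseudogenes, antigen receptor segments and the group of 26 low in both 4-month adipose libraries, of which the 5 highest are named), the 3 largest ratios of each pathway list and 2 of each other list at 10 CPM or more, 18 fixed Treg genes, and Foxp3, Xist, Ddx3y and Gapdh. This gave 128 genes (others of the rule are not reported here), and 43 more were added after their values were seen. Each count, list and named gene was recomputed under 13 alternatives, and 2 more were added after seeing the data. Python 3.11.15, numpy 2.4.6, pandas 2.3.3, scipy 1.17.1, matplotlib 3.10.9 and bedtools 2.31.1 were used, and the calculations were tested on simulated data.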

Additional observations from a re-analysis of the deposited data

How the results depend on the processing

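No paired analysis was possible because each group has 1 library, and no replicate could be left out. The count of higher genes was 2182 with a pseudocount of 5, 2470 with 5 CPM or more in either library, 908 with a mean of 20 CPM or more (1316 lower there) and, in an alternative chosen after seeing the data, 2457 without genes whose exons overlap another gene. Each of these keeps fewer genes or shrinks low ones. The other 25 recomputed counts were within 1.5 times the main one. With the scaled counts as deposited the median log2 ratio of all genes was 0.078 instead of -0.14. Of the recomputed log2 ratios of named genes 2002 kept their sign and moved little, 313 moved and 32 reversed, and of the list medians 438, 71 and 6. With the library labelled Med23 KO in place of the 10-month Foxp3Cre library the reversed log2 ratios were endothelial 0.67, Anxa1 -6.28, Anxa2 -2.34, Atf3 -1.19, Bach2 1.003, Bnip3 -0.31, Ccl5 0.034, Ccr1 -6.70, Cxcr6 -3.03, Dusp6 -2.83, Fabp4 -0.020, Havcr2 -0.065, Ifih1 0.074, Klrg1 -5.12, Mcm3 0.60, Nt5e 0.0042, Per3 0.017, Pparg -5.43, Socs3 0.44, Stmn1 -2.04 and Tcf7 1.79. With the obese in place of the lean library they were B cell and plasma cell -1.22, CD8 T and NK cell -1.65, Dcn 2.40, Fabp4 -3.11, Havcr2 -0.68, Itgae -0.23, Mrps10 -0.78, Msmo1 -0.17, Per3 0.65, Psmc4 -0.58, Psmd4 -0.0040, Rsad2 -3.47, Tmem176b -0.65 and Tnfrsf8 0.40. Of the other list medians, CD8 T and NK cell was -1.50 with a mean of 20 CPM or more, B cell and plasma cell -0.16 with protein-coding genes only, and granulocyte and mast cell -0.32 without genes listed as NA. The cause of these reversals was not tested. Depth limits genes under about 9 reads, which are listed as 0.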
